A study of Homo sapiens with 28 samples.

Results

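The core-binding region (CBR) of ARID1A was compared with an empty vector in AN3CA cells, an established human endometrial carcinoma line, by ATAC-seq, a method that marks accessible DNA with a transposase. The comparison uses the libraries titled ARID1A_CBR replicates 1 and 2 and Empty_vector replicates 1 and 2, which is 4 of the 28 libraries of the series and 2 of its 13 groups. The ARID1A_CBR cells express a truncated ARID1A that the labels call a CBR mutant, and the Empty_vector cells carry the vector with no insert. No treatment, time point, promoter or clone is given in the labels for either group. All groups share the cell line and its serum-containing medium. The labels do not say whether replicates came from separate cultures, so their spread may be technical. Other groups are brought in only where they show what else was called at the same places: wild-type ARID1A (ARID1A_WT), ARID1A with a mutated DNA-binding domain (ARID1A_DBDmut), ARID1A lacking its disordered region 1 (ARID1A_delIDR1), a hybrid with the disordered region of DDX4 (ARID1A_DDX4), ARID1B_WT and further altered forms named as in the titles.

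ARID1A is the largest subunit of the canonical BAF (cBAF) complex, a chromatin remodeler that uses ATP to move or eject nucleosomes and so makes enhancers accessible. Its long N-terminal part is intrinsically disordered and is followed by the ARID DNA-binding domain, while the C-terminal core-binding region joins the rest of the complex and holds the ATPase module to it. ARID1A is often lost by mutation in endometrial carcinoma, and ARID1B is the paralogue that can take its place in the complex. The question of the comparison is which sites open and which close when cells receive the core-binding region without the disordered part and the ARID domain.

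Peaks were called per sample, and the authors deposited 1 list for each library. ARID1A_CBR 1 and 2 had 45159 and 66013 peaks, against 45286 and 49528 peaks in Empty_vector 1 and 2. No read counts come with the lists, so the depth is unknown, and list length can move with depth as well as with chromatin. The date code in the peak names puts ARID1A_CBR 1 and Empty_vector 1 in 1 run (run A) and ARID1A_CBR 2 and Empty_vector 2 in another (run B), together with 1 library each of ARID1A_WT, ARID1A_DBDmut and ARID1A_delIDR1. Chromosomes 1 to 22 and X were kept, peaks were ranked within each list by the authors' -log10 p-value (rank 1 is the most significant), and all 4 lists were trimmed to 45089 peaks, the length of the ARID1A_CBR 1 list. The trimmed lists covered 32.9 and 39.6 Mb in ARID1A_CBR, against 35.8 and 39.5 Mb in Empty_vector. The -log10 p-value of the last peak kept was 5.00 and 10.3 in ARID1A_CBR, against 5.27 and 6.33 in Empty_vector, so the trim cuts deepest into the ARID1A_CBR 2 list. All positions are hg19 coordinates. No annotation of that build was used, so regions are named by position and not by gene. An open site in fewer cells and a less open site in more cells cannot be told apart in such bulk libraries.

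The interval of chromosome 1 around ARID1A was looked at as a check of the labels, since an introduced copy of a gene can give reads there. The interval was set from general knowledge of the gene's place and not from an annotation of hg19, so the check holds only as far as that placement does. Its outermost peaks over all libraries lay at chr1:27056156-27059263 and chr1:27105556-27107667. In both ARID1A_CBR libraries the most significant peak of the whole list lay in this interval. It spanned chr1:27105556-27107667 in ARID1A_CBR 1, at rank 1 of 45089 with a fold enrichment of 5.57 over the caller's background. In ARID1A_CBR 2 it spanned chr1:27105557-27107227, at rank 1 of 65949 with a fold enrichment of 5.32. Empty_vector 1 had a 204-bp peak there at rank 41565, and Empty_vector 2 had no peak. The other ARID1A forms of the same runs had a peak at this place at lower ranks, 680 and 1041 in ARID1A_delIDR1, 9368 and 9384 in ARID1A_DBDmut and 13692 and 12713 in ARID1A_WT. The left part of the interval, its first 45 of 60 kb, a limit set after the values were seen, differed among the forms of these runs. ARID1A_CBR had no peak there in either library, while peaks covered 1.45 and 1.46 kb of it in ARID1A_delIDR1, 5.84 and 6.97 kb in ARID1A_DBDmut, and 6.50 and 5.06 kb in ARID1A_WT, against 0.230 and 0.194 kb in Empty_vector 1 and 2. The absence in ARID1A_CBR 2 depends on this limit. That library had a weak 191-bp peak just past it, at 45.293 to 45.483 kb and rank 64496 of 65949. ARID1A_Y42S 1 and 2 also had a peak at the right end, at ranks 26347 and 16807, and none in the left part. Their lists were shorter, with 28855 and 19433 peaks, so weak peaks may be missed there. Unlike ARID1A_CBR, ARID1A_Y42S 1 also had a 2244-bp peak at 49.087 to 51.33 kb, at rank 25835. ARID1A_Y42S 2 had one at 49.081 to 49.387 kb. Whether the signal came from the introduced copy or the cells' own gene was not tested.

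**Figure D1:**
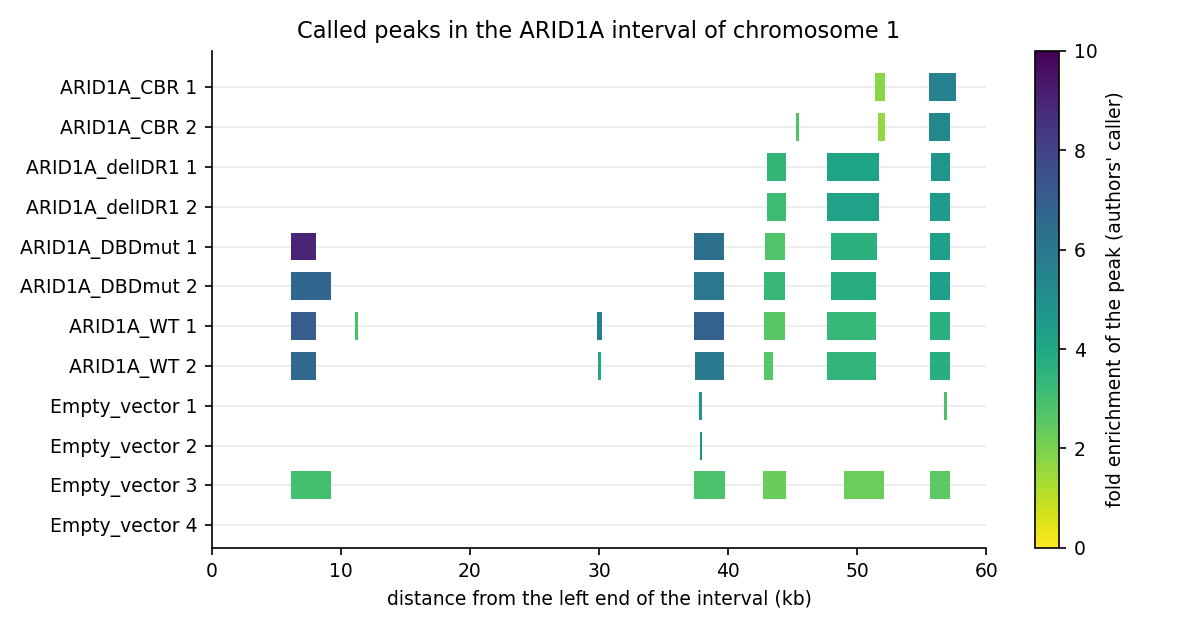
Called peaks of each library (whole lists) across the ARID1A interval, as distance in kb from its left end; colour is the fold enrichment given by the authors' caller. ARID1A_CBR 1 and 2 have a strong peak at the right end, at ranks 1 and 1 of their lists, and none in the first 45 kb. ARID1A_CBR 2 has a weak 191-bp peak just past that limit. Empty_vector 3, which is not used in the comparison, has 5 peaks covering 11.9 kb.

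Empty_vector 3 stood apart from the other Empty_vector libraries at this interval. Its 5 peaks there covered 11.9 kb, close to the 11.9 and 10.4 kb of ARID1A_WT 1 and 2, whereas Empty_vector 1, 2 and 4 had 0.434, 0.194 and 0 kb. Their fold enrichments were 2.25 to 2.99 in Empty_vector 3, against 2.65 to 7.11 in ARID1A_WT 1. Whether the label of Empty_vector 3 is right was not tested. The main comparison does not use that library, and values that do use it are also given without it.

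The merged lists of the 4 libraries gave 48065 regions called by at least 2 of them, a call being an overlap of at least 1 bp with a peak of that library. Both ARID1A_CBR libraries and neither Empty_vector library called 3855 of these regions, which is 8.02% of them and is named opened here. The opposite pattern, named closed, was seen in 3015 regions, or 6.27%. All 4 libraries called 33099 regions (68.9%). The remaining 8096 had mixed calls. Regions that moved in opposite directions in the 2 runs were fewer, with 372 opened in run A and closed in run B, and 403 closed in run A and opened in run B. The similarity of libraries, as the regions called by both divided by those called by either, was 0.856 between ARID1A_CBR 1 and 2, 0.759 to 0.788 between an ARID1A_CBR and an Empty_vector library, and 0.914 between Empty_vector 1 and 2. With 2 libraries against 2 the smallest two-sided p of an exact permutation test is 0.333, so these counts carry no p-value.

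**Figure D2:**
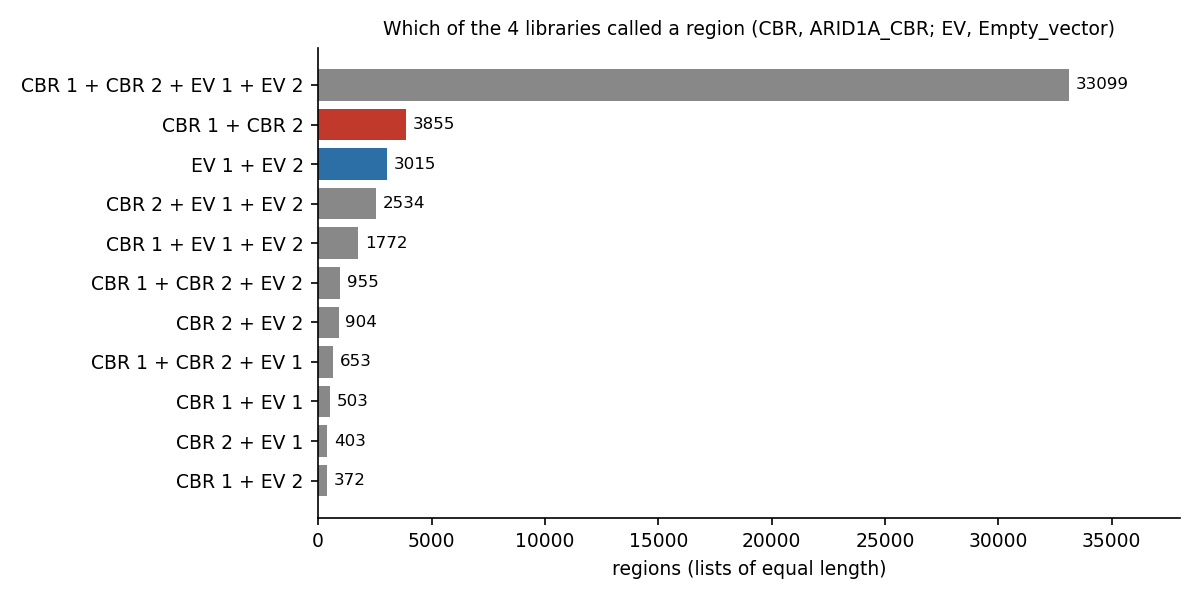
Number of regions (horizontal axis, lists of 45089 peaks) by which of the 4 libraries called them; CBR is ARID1A_CBR and EV is Empty_vector. The 3855 regions called by both ARID1A_CBR libraries alone (red) and the 3015 called by both Empty_vector libraries alone (blue) are the largest patterns after the 33099 shared by all 4.

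Whole lists gave more opened and fewer closed regions. Of 53588 regions, 5528 (10.3%) were opened and 1604 (2.99%) were closed. The gap between the equal-length and whole-list counts moved with 1 library, ARID1A_CBR 2, whose list is the longest of the 4. Of the 3015 regions closed in equal-length lists, the whole ARID1A_CBR 2 list held a weaker peak in 57.4%, while the ARID1A_CBR 1 list, which was not shortened, held none by definition. Of the 3855 opened regions, the whole Empty_vector lists held a weaker peak in 0.285% for Empty_vector 1 and 7.19% for Empty_vector 2. These shares move with how much of each list the trim removed: ARID1A_CBR 2 was cut from 65949 to 45089 peaks, whereas Empty_vector 1 and 2 were cut from 45227 and 49468. They therefore do not compare opened with closed regions.

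Each run was then used to choose regions and the other run to score them. In run A alone, 8548 of 53572 regions (16.0%) were called in ARID1A_CBR 1 and not in Empty_vector 1, and 8797 (16.4%) the other way. In run B alone, 7472 of 52457 (14.2%) were called in ARID1A_CBR 2 alone and 7472 (14.2%) in Empty_vector 2 alone. Lists of equal length hold these counts near each other within a run, so their balance is no result. In whole lists run A had 8515 opened (15.9%) and 8902 closed (16.6%) of 53677 regions, and run B, with its longer ARID1A_CBR list, had 21285 opened (30.2%) and 4876 closed (6.91%) of 70590. Of the regions opened in run A, ARID1A_CBR 2 called 57.3% and Empty_vector 2 called 16.0%. Of those opened in run B, ARID1A_CBR 1 called 60.4% and Empty_vector 1 called 14.1%. The mean was 58.9% ± 2.13 for ARID1A_CBR and 15.1% ± 1.30 for Empty_vector (SD, n = 2 each). The gap of 43.8 percentage points had the smallest p that the exact two-sided permutation test can give, 0.333. The regions opened in a single run were thus recalled in part, and far more often by ARID1A_CBR than by Empty_vector in each run.

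The other ARID1A forms of the same runs also called many of the regions chosen this way. Of the regions that the ARID1A_CBR library of the other run opened, ARID1A_delIDR1 called 53.7% ± 3.40, ARID1A_WT 47.2% ± 0.366 and ARID1A_DBDmut 46.7% ± 1.08 (SD, n = 2 each). These values lie below that of ARID1A_CBR and above the 15.1% of Empty_vector in both runs. ARID1A_delIDR1 lay nearest to ARID1A_CBR, at 56.1% beside 57.3% in run B and 51.3% beside 60.4% in run A.

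Closed regions separated the groups by less. Of the regions closed in one run, ARID1A_CBR of the other run still called 31.4% ± 3.63, and Empty_vector called 64.4% ± 0.0228 (SD, n = 2 each), or -33.0 percentage points for ARID1A_CBR minus Empty_vector (exact two-sided permutation p = 0.333). ARID1A_WT called fewest of them, at 10.4% ± 2.26, with ARID1A_DBDmut at 20.4% ± 2.64 and ARID1A_delIDR1 at 22.5% ± 2.50 (SD, n = 2 each). In whole lists the closed difference was -18.4 percentage points with p = 0.667 in the same exact test, so the libraries of the groups overlapped there.

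Opened regions were narrow and of moderate significance. Their median width was 553 bp, against 933 bp for the regions called in all 4 libraries, and 8.27% of them exceeded 1 kb, against 46.8%. Their median rank in the ARID1A_CBR lists was 34165, against 17136.5 for the regions called in all 4, and their median fold enrichment was 4.25, against 5.19. Closed regions had a median width of 493 bp and a median rank of 38137.5 in the Empty_vector lists, so both classes came mainly from the lower part of the lists. Even so, 10.5% of the opened regions stood among the first 22544 ranks in ARID1A_CBR, against 3.28% of the closed regions in Empty_vector. The best opened region had a mean rank of 4262.5 and the best closed region 9031.

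The 15 opened regions with the best mean rank were 547 to 1375 bp wide and had mean ranks from 4262.5 to 8136.5. The first was chr9:86046637-86047520, at rank 4045 with a fold enrichment of 7.10 in ARID1A_CBR 1 and rank 4480 with 6.68 in ARID1A_CBR 2. Neither Empty_vector 1 nor 2 had a peak there in its whole list. The next was chr17:38487893-38488961, at ranks 4585 and 4421 in ARID1A_CBR and with no peak in Empty_vector. The region chr6:15504299-15505673 was the widest of the 15, at ranks 6193 and 3808 in ARID1A_CBR and with no peak in Empty_vector. It stood higher still in ARID1A_WT, at ranks 509 and 815. These 3 sites and the other 12 were not particular to the core-binding region, since both libraries of ARID1A_WT, ARID1A_delIDR1, ARID1A_DBDmut and ARID1B_WT called all 15. Of all 3855 opened regions in whole lists, both libraries called 74.3% in ARID1A_WT, 71.0% in ARID1A_delIDR1 and 63.1% in ARID1A_DBDmut. Neither Empty_vector 3 nor 4 called any of them. At 8 of the 15, ARID1A_DDX4 1, ARID1A_DDX4 2 or both had a peak.

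A few of these regions had better ranks in ARID1A_CBR than in the longer forms of the protein. At chr7:81113462-81114046 the ranks were 5564 and 9349 in ARID1A_CBR, with no peak in Empty_vector 1 or 2. The same region had ranks 9630 and 10060 in ARID1A_delIDR1, 19920 and 19610 in ARID1A_WT and 23854 and 26524 in ARID1A_DBDmut, and 10 of the other 24 libraries called it, the fewest among the 15. At chr2:96926215-96926761 the ranks were 7857 and 7677 in ARID1A_CBR, with no peak in Empty_vector 1 or 2, and 13841 and 14489 in ARID1A_WT. At both places the ARID1A_CBR libraries stood above all 6 libraries of the other forms in the same runs, with no overlap. The regions were chosen by their ranks in ARID1A_CBR, which by itself favours better ranks there than in libraries that did not choose them. These ranks come from lists of different lengths, and the differences were not tested. The Empty_vector 2 list held a weak peak at 2 of the 15, chr5:141126625-141127184 at rank 45613 and chr7:47644192-47644892 at rank 49427, both past the trimmed length.

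The 10 closed regions with the best mean rank had mean ranks of 9031 to 13820 in Empty_vector and widths of 220 to 1429 bp. The first was chr1:220447378-220448402, with no peak in ARID1A_CBR 1 or 2, against ranks 7919 and 10143 in Empty_vector 1 and 2. At chr14:66242738-66243612 ARID1A_CBR 1 had no peak and ARID1A_CBR 2 had one at rank 45261, against ranks 8653 and 10205 in Empty_vector. The whole ARID1A_CBR 2 list held a weak peak at 5 of the 10, so those 5 are weakened in that library and not absent from it. No closed region of the 10 was called by both ARID1A_WT libraries or by both ARID1A_DBDmut libraries, and both ARID1A_delIDR1 libraries called 6. The closed class as a whole had another order. Of all 3015 in whole lists, both libraries called 22.6% in ARID1A_WT, 22.5% in ARID1A_DBDmut and 13.2% in ARID1A_delIDR1. The regions chr8:104664394-104665822 and chr4:42570725-42570944 were called in no library of the series but Empty_vector 1 and 2. Empty_vector 4 called 1 of the 10 and Empty_vector 3 none, so most of these sites are not seen in the control libraries of the third run, whose lists are shorter (24573 and 28353 peaks).

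The 3855 opened regions were looked up in every other library of the series. With lists of at most 45089 peaks (43130 in ARID1A_delIDR1 1), ARID1A_delIDR1 called 73.1% and 79.3% of them, ARID1A_WT 65.9% and 66.2%, and ARID1A_DBDmut 64.4% and 62.8%. ARID1B_S320_G327del called 62.8% and 63.0%, ARID1B_WT 57.8% and 57.7%, and ARID1B_A457_G461del 55.9% and 56.0%, although the ARID1B libraries come from other runs. The constructs with both lists under 45089 peaks called fewer, from 30.5% and 28.1% in ARID1B_Block13del to 2.13% and 3.29% in ARID1A_DDX4. Empty_vector 3 and 4, controls that did not choose the regions, called 0.337% and 0.674%. Their lists held 24527 and 28314 peaks, while the median rank of opened regions in ARID1A_CBR was 34165. Low shares in lists this short therefore cannot be read against those of the longer lists. The same libraries called more of the 33099 regions shared by all 4 lists, with 90.2% and 94.7% in ARID1A_delIDR1, 84.6% and 83.0% in ARID1A_WT, 92.7% and 90.0% in ARID1A_DBDmut, 75.1% and 73.1% in ARID1B_WT and 59.6% and 65.7% in ARID1A_DDX4, against 68.4% and 78.0% in Empty_vector 3 and 4. Of the closed regions, ARID1A_DBDmut called 16.3% and 20.9%, ARID1A_delIDR1 17.1% and 14.9%, and ARID1A_WT 7.53% and 8.03%. From their shorter lists, Empty_vector 3 and 4 called 6.87% and 12.3% of the closed regions. The Wilson 95% interval of any such share is at most 1.60 percentage points to either side and covers counting error alone.

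**Figure D3:**
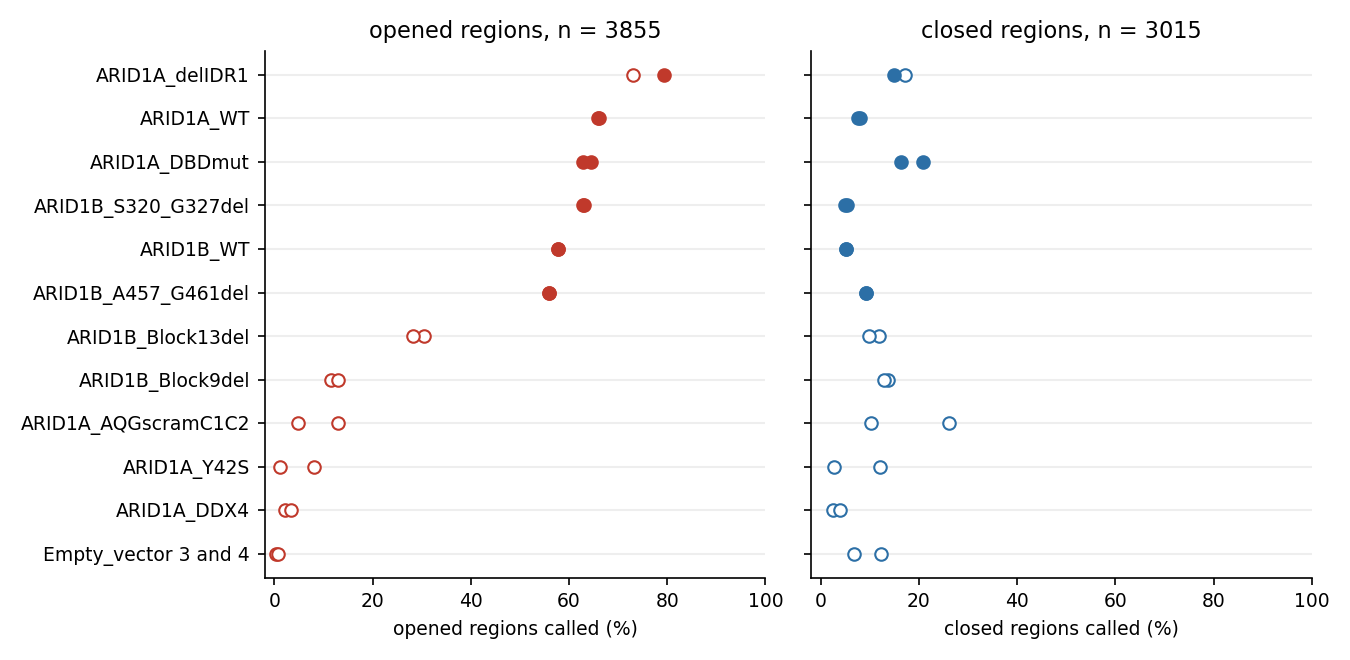
Share of the 3855 opened (red) and 3015 closed (blue) regions called by each library that did not choose them, by construct; filled points have lists of 45089 peaks and open points have shorter lists. ARID1A_delIDR1 lies highest among opened regions at 73.1% and 79.3%, and Empty_vector 3 and 4 lie lowest at 0.337% and 0.674%. The lists of Empty_vector 3 and 4 are short, with 24527 and 28314 peaks.

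To set short lists beside long ones, all lists were cut to 19433 peaks, the shortest of the 28. The 4 libraries then gave 1181 opened and 964 closed regions. Of these opened regions ARID1A_delIDR1 called 66.4% and 69.3%, ARID1A_WT 51.2% and 50.5%, ARID1A_DBDmut 50.6% and 48.2%, and ARID1B_WT 41.0% and 39.9%. ARID1A_DDX4 called 28.4% and 29.2%, against 15.3% in Empty_vector 3 and 16.3% in Empty_vector 4, so the share of ARID1A_DDX4 lay above both controls at equal length. ARID1A_Y42S, with 20.7% and 19.5%, and ARID1B_Block9del, with 17.4% and 20.2%, lay nearer to the controls. The closed regions went the other way, with 52.3% and 54.5% called in Empty_vector 3 and 4. ARID1A_AQGscramC1C2 called 49.1% and 53.1% of them, ARID1A_delIDR1 28.2% and 27.3%, ARID1A_WT 19.1% and 20.2%, and ARID1B_WT 11.2% and 10.3%. The runs differ between these constructs. Of the constructs named here, only ARID1B_WT shared a run with Empty_vector 3 and 4. The runs of ARID1A_DDX4, of ARID1A_AQGscramC1C2, and of ARID1A_Y42S and ARID1B_Block9del held no Empty_vector library. Against the controls, construct and run cannot be told apart for them.

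Most opened regions were shared with other forms of the protein, and a small set was not. In whole lists, 2217 of the 3855 (57.5%) were called by all 6 libraries of ARID1A_WT, ARID1A_DBDmut and ARID1A_delIDR1, and 372 (9.65%) by none of the 6. Both ARID1A_WT libraries called 2864 (74.3%) and neither called 683 (17.7%). The overlap with closed regions was smaller, with 172 of 3015 (5.70%) called by all 6 and 993 (32.9%) by none. No library among the other 24 called 328 of the opened regions and 808 of the closed regions. The median opened region was called by 11 of the other 24 libraries, and the median closed region by 2. Counts over all 6 libraries were not computed for the 33099 regions called by every library of the comparison. Taken singly, the 6 libraries called 65.4% to 84.8% of the opened regions in whole lists. They called 89.3% to 96.8% of those 33099 regions. Library by library, opened regions were thus shared less than those regions, and sharing is not shown to be particular to the opened class.

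The opened regions found nowhere else were the narrowest. Their median width was 343 bp, and 33.5% were under 300 bp, against 574 bp and 6.46% for the opened regions that at least 1 other library called. The first 3 of them by rank were chr6:112617430-112617639, chr5:139528083-139528427 and chr11:80948293-80948510. The region on chromosome 6 was 210 bp wide, at ranks 15247 and 17063 with fold enrichments of 6.93 and 8.15 in ARID1A_CBR 1 and 2, and without a peak in Empty_vector. The regions on chromosomes 5 and 11 were 345 and 218 bp wide. Among closed regions found nowhere else the median width was 447 bp, and 18.7% were under 300 bp. These widths describe the peaks and were not tested.

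Among the opened regions, those with the best ranks were shared most. Shares by rank were not computed for other regions, so this trend is not shown to be particular to opened regions. The 964 opened regions with the best ranks, from 4262.5 to 28593.5, were called at equal length by 89.0% ± 4.11 in ARID1A_delIDR1, 79.8% ± 1.25 in ARID1A_WT, 78.5% ± 3.30 in ARID1A_DBDmut and 71.9% ± 0.734 in ARID1B_WT (SD over libraries, n = 2 each). Of the 963 weakest the shares were 67.6% ± 3.38 in ARID1A_delIDR1, 58.3% ± 1.17 in ARID1A_WT, 54.7% ± 0.955 in ARID1A_DBDmut and 50.5% ± 0.0734 in ARID1B_WT. The order of the means of these 4 constructs was the same at both ends of the ranking. At the best ranks ARID1A_WT and ARID1A_DBDmut overlapped, with libraries at 78.9% and 80.7% against 76.1% and 80.8%.

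Regions that all 4 libraries called were compared by rank. Each rank was turned into a normal score (a higher score is a better rank), and limma was fitted over all 33099 regions. At an adjusted p under 0.05 (Benjamini-Hochberg over all 33099), 573 regions (1.73%) ranked higher with ARID1A_CBR and 348 (1.05%) ranked lower, 921 (2.78%) in all. The median difference over all tested regions was -0.03 in normal score. The higher regions had a median mean rank of 16613 in ARID1A_CBR and 35960 in Empty_vector, and a median difference of 1.09. The lower regions had a median mean rank of 37069 in ARID1A_CBR and 20360.5 in Empty_vector, and a median difference of -0.99. Without Empty_vector 1, and likewise without Empty_vector 2, limma called 0 regions in either direction, with 1947 higher and 1810 lower at an unadjusted p under 0.05 in the first case and 1679 and 1606 in the second. Ranking peaks by fold enrichment in place of the p-value left 27 higher and 30 lower.

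**Figure D4:**
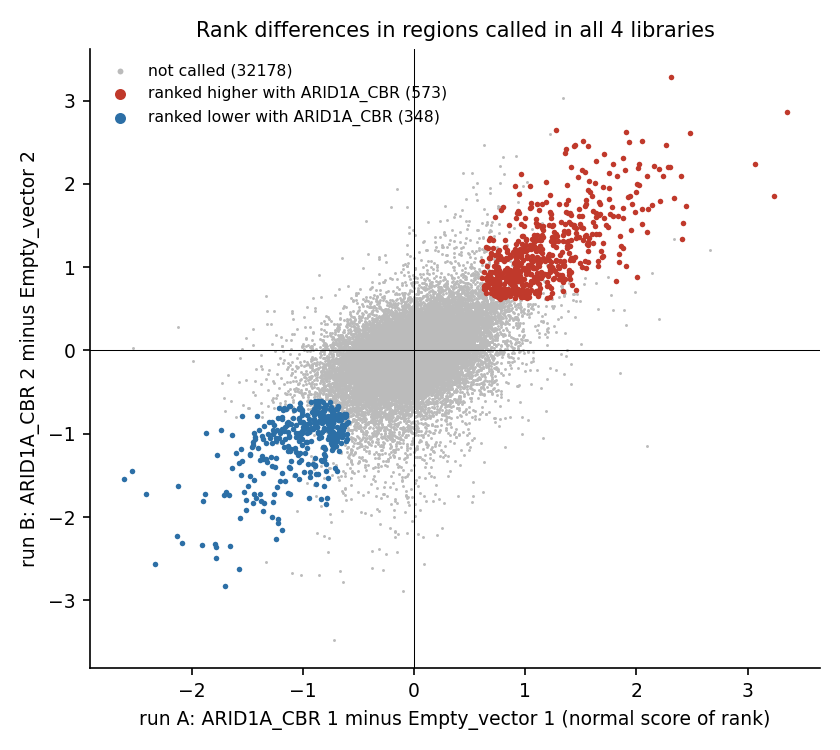
Difference in normal score of rank, ARID1A_CBR minus Empty_vector, in run A (horizontal) and run B (vertical) for the 33099 regions called in all 4 libraries. The 573 regions ranked higher (red) and the 348 ranked lower (blue) lie on one side of 0 in both runs, which follows from their choice in these same libraries. Of all tested regions, 66.3% have the same sign in both.

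The region with the smallest p among those ranked higher was chr17:40819255-40820328. It stood at ranks 7747 and 8668 in ARID1A_CBR, against ranks 42257 and 43269 in Empty_vector, with fold enrichments of 5.48 and 5.49, against 3.18 and 2.92. The difference was 2.55 in normal score (SE 0.141, limma adjusted p = 0.00654). ARID1A_WT had it at ranks 10110 and 11755. The region chr2:47182027-47182855 stood at ranks 8413 and 9606 in ARID1A_CBR, against ranks 41538 and 41488 in Empty_vector, a difference of 2.25 (SE 0.129, limma adjusted p = 0.00654). The region chr8:67434236-67435457 stood at ranks 5460 and 5746, against ranks 38322 and 38397 in Empty_vector, a difference of 2.19 (SE 0.126, limma adjusted p = 0.00654). In all 3, both ARID1A_CBR libraries stood far above both Empty_vector libraries, with no overlap. The regions were chosen by the smallest p in these same 4 libraries, so this separation follows from the choice. The other 7 of the 10 regions with the smallest p had differences of 1.88 to 2.25. All 6 libraries of ARID1A_WT, ARID1A_DBDmut and ARID1A_delIDR1 called each of the 10, and 1 of the 10 was called by Empty_vector 4 and none by Empty_vector 3.

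Among the regions ranked lower, chr7:75253003-75254003 stood at ranks 43718 and 44079 in ARID1A_CBR, against ranks 14552 and 13023 in Empty_vector, a difference of -2.45 (SE 0.134, limma adjusted p = 0.00654). ARID1A_delIDR1 had it at ranks 34268 and 34540, and neither ARID1A_WT nor ARID1A_DBDmut had a peak. The region chr10:122656274-122657283 was one of the most significant in the control cells, at ranks 28886 and 28366 in ARID1A_CBR, against ranks 2774 and 3132 in Empty_vector, a difference of -1.86 (SE 0.127, limma adjusted p = 0.00712). ARID1A_WT 1 had it at rank 45079 and ARID1A_WT 2 had none. Empty_vector 3 and 4, which did not enter the fit, had it at ranks 18012 and 13729 of their shorter lists. Neither ARID1A_WT library had a peak at 5 of the 10 named lower regions, while both ARID1A_delIDR1 libraries had one at 9. The other 8 of the 10 had differences of -1.49 to -2.20.

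The ranked regions were looked up in libraries that did not enter the fit and set beside all tested regions. ARID1A_delIDR1 called 96.0% and 98.1% of the 573 regions ranked higher and 86.5% and 88.2% of the 348 ranked lower, against 90.2% and 94.7% of all 33099. ARID1A_WT called 85.3% and 85.5% of the higher and 51.4% and 52.6% of the lower, against 84.6% and 83.0% of all. ARID1B_WT called 78.9% and 77.0% of the higher and 39.9% and 37.9% of the lower, against 75.1% and 73.1% of all. The regions ranked lower with the core-binding region were more often without a peak under the wild-type proteins than the regions tested as a whole. The regions ranked higher were called about as often as all tested regions, or slightly more often. These sets differed in strength. The lower regions had median mean ranks of 37069 in ARID1A_CBR and 20360.5 in Empty_vector, against 17136.5 and 16806 for all tested regions. The higher regions had 16613 in ARID1A_CBR and 35960 in Empty_vector. No share at matched rank was computed, so the part of peak strength in these shares was not tested. Where called, the higher regions had median ranks of 13790 and 13885.5 in ARID1A_WT and 16077 and 15289 in ARID1A_delIDR1, and the lower regions 32971 and 33472 in ARID1A_WT and 29861 and 31565 in ARID1A_delIDR1, beside 15731 and 15357.5 in ARID1A_WT and 15481 and 16289.5 in ARID1A_delIDR1 for all tested regions. The control libraries are shared by these comparisons, and no test was made.

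The chromosomes differed in their shares. Opened regions outnumbered closed regions on 19 of 23 chromosomes. Lists of equal length hold the opened and closed counts near each other within a run. The excess over both runs therefore moves with how far the libraries of each group agree. Only ARID1A_CBR 2 joined both Empty_vector libraries at 2534 regions, and only ARID1A_CBR 1 at 1772. Only Empty_vector 2 joined both ARID1A_CBR libraries at 955 regions, and only Empty_vector 1 at 653. The chromosomes share these lists, so they are not separate evidence. Chromosome 3 had 270 opened regions of 2818 (9.58%) and 158 closed (5.61%), and chromosomes 5 and 8 had 9.50% and 9.37% opened. On chromosome 13 the order was turned, with 62 opened (6.04%) and 92 closed (8.97%) of 1026 regions. Chromosome 19 had the lowest opened share, with 87 opened (3.79%) and 117 closed (5.10%) of 2293 regions. Chromosomes 18 and X also had more closed than opened regions, with 56 opened and 59 closed on chromosome 18, and 57 opened and 78 closed on chromosome X. The number of copies of each chromosome in these cells was not measured here, and its part in the shares was not tested.

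**Figure D5:**
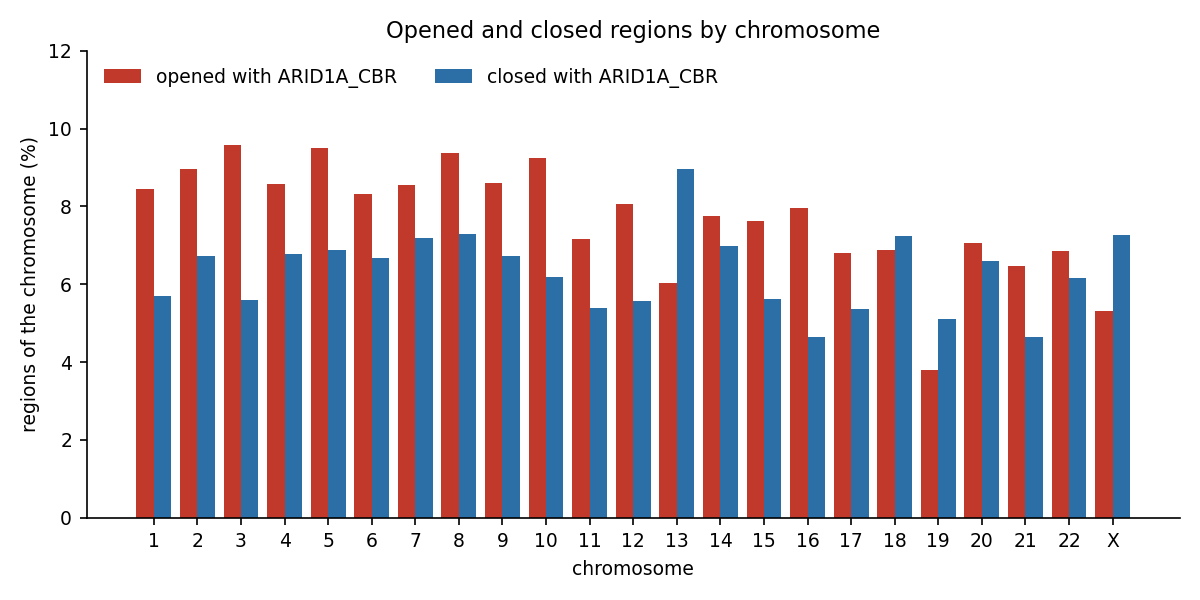
Opened (red) and closed (blue) regions with ARID1A_CBR as a percent of the regions of each chromosome, lists of 45089 peaks. Opened regions prevail on 19 of the 23 chromosomes, with chromosomes 13, 18, 19 and X as exceptions. The excess moves with how far the libraries of each group agree.

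The spacing of opened and closed regions was also measured. The nearest region of the same class lay at a median of 121 kb for opened and 172 kb for closed regions, but 5.81% of opened and 8.36% of closed regions had one within 10 kb. The opened class is larger (3855 against 3015 regions), which by number alone shortens its distances. No value at equal number was computed. A region called in all 4 libraries lay within 10 kb of 28.4% of opened and 35.5% of closed regions. By bins of 1 Mb, most opened regions fell at chr3:194000001-195000000, with 11 opened and 1 closed of 41 regions. That bin held 45 and 39 peaks in ARID1A_CBR, against 30 and 28 in Empty_vector. Closed regions were most numerous at chr13:81000001-82000000, with 14 closed and 2 opened of 70, where ARID1A_CBR had 59 and 49 peaks, against 75 and 70 in Empty_vector. At chr10:54000001-55000000, 8 of 17 regions were closed and none opened, and ARID1A_CBR had 8 and 9 peaks there, against 24 and 18 in Empty_vector. In these 3 bins the peak counts of the groups did not overlap. They were picked as the extremes of many bins, so the counts are given with no test.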

How the data were processed

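ATAC-seq libraries of AN3CA cells were analysed from the peak lists that the authors deposited, 1 list per library. MACS2, SAMtools 0.1.19, Picard 2.8.0, Bowtie2 2.29 and bcl2fastq on hg19 are named in the submitters' processing notes, with no order or role. How MACS2 was run, with what control and whether cut sites were shifted, is not given in the sources used here. The design text speaks of CUT&Tag and all titles of ATAC-seq, which was followed. The authors' deposited columns are a score, a fold enrichment (a ratio over the caller's background), a -log10 p-value and a -log10 q-value; the smallest -log10 q-value was 3.00 to 3.03 in all lists. The deposited score is 10 times the -log10 q-value, rounded down, in all but 59 of 1247388 peaks. The lists hold no reads, so depth is unknown.

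Samples were grouped by title. Peaks on chromosomes 1 to 22 and X were ranked by -log10 p-value and trimmed to 45089 per list, overlapping peaks were merged, and regions called in at least 2 of the 4 libraries were kept, except in the comparison across runs, where regions came from the choosing run alone. A call is an overlap of 1 bp. Rank normal scores of regions called in all 4 libraries were tested with limma 3.58.1 (R 4.3.3) across all such regions, with Benjamini-Hochberg adjustment; other values were computed in Python 3.11.15. On simulated scores with 200 of 33099 regions changed, limma recovered 69% of shifts of 1 with 8 false calls, and 0 of 200 shifts of 0.5. All regions were simulated with 1 common spread and no run effect. The real scores differ in spread between regions, so these figures may not hold for them. The region calls were tested on simulated lists. Replicate numbers pair the libraries, since same-numbered libraries carry the same date code in their peak names; their deviations from the group means correlated at 0.151 over 33099 regions. The named regions are the 15 opened and 10 closed regions with the best mean rank and the 10 higher and 10 lower with the smallest p; the 3 regions called by ARID1A_CBR alone and the 1-Mb bins were chosen after their values were seen. The members and lists were chosen with earlier results of these data known. Promoter shares, gene lists and marker checks were not analysed here, since no annotation of hg19 was used. The alternatives tried were whole lists, shorter lists, equal covered length, other overlaps, windows, rankings and controls, a replicate block and leaving out each library.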

Additional observations from a re-analysis of the deposited data

Results flagged for a closer look

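Empty_vector 3 had 11.9 kb covered by peaks (11.877 kb) in the interval of chromosome 1 taken as that of ARID1A, which was placed from general knowledge and not from an annotation, against 0.434, 0.194 and 0 kb in Empty_vector 1, 2 and 4. Its gap to the nearest other library was 0.963 of the range of the group, above Dixon's critical value for 4 samples. Chance flags about 1 in 20 groups in this way. With Empty_vector 3 among the controls, and all lists at 24527 peaks, 1260 regions were opened and 566 closed; with Empty_vector 1, 2 and 4 as controls, at 28314 peaks, the counts were 1549 and 827. The library takes no part in the main comparison of ARID1A_CBR with Empty_vector 1 and 2.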

How the results depend on the processing

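The counts of opened and closed regions (3855 and 3015) depend on list length and on how a region is cut. Opened and closed counts were 1380 and 1161 with the first 22544 peaks of each list, 1181 and 964 with 19433, 2400 and 1095 at equal covered length, 8513 and 8034 in windows of 500 bp, 1260 and 566 with all 4 Empty_vector libraries as controls and 1549 and 827 with Empty_vector 1, 2 and 4, a choice made after seeing the data. Closed regions fell to 1604 in whole lists and 1388 at a -log10 q-value of at least 5. Leaving out each library in turn gave 4508 to 7183 opened and 4787 to 5808 closed regions, and in whole lists 6190 to 19556 opened (19556 without ARID1A_CBR 1) and 1733 to 6349 closed (6349 without ARID1A_CBR 2); fewer libraries then had to match. Opened regions outnumbered closed ones in 13 of 15 settings, among them the replicate block, which repeats the main counts by construction. The exceptions left out Empty_vector 1 (4508 opened, 5317 closed) or Empty_vector 2 (4814 and 5808). In equal-length lists the direction rests on how far the libraries of each group agree, so no conclusion is drawn from it.

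Ranked regions (573 higher, 348 lower) were the least stable. Limma called 27 and 30 when peaks were ranked by fold enrichment and 160 and 61 on plain ranks. It called 0 and 0 with the first 22544 peaks, where 1277 and 1187 had an unadjusted p under 0.05, and 67 lower in whole lists. It called 4144 and 3156 when regions called in at least 2 libraries were tested, and 1082 and 662 with a variance trend, added after seeing the data. Leaving out each library gave 0 to 1056 higher and 0 to 1351 lower. The cause was not tested. With the replicate block, limma called 662 higher and 464 lower, with 558 of the higher regions shared with the fit without it, and the opened and closed counts of 3855 and 3015 hold by construction; the block moved no count by over 1.5 times. The share of regions opened in 1 run and called in the other kept its direction, with differences of 43.0 percentage points in whole lists and 40.9 at 19433 peaks, beside 43.8. Promoter shares were not run, since no annotation of the build was used.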
